A study of Homo sapiens with 7 samples.

Results

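The response to induction of a METTL14 shRNA was examined within a single stem cell line. Libraries were chosen by their labels, and 5 of the 7 libraries in the series entered the comparison. iKD2 Dox+ (n = 3, lettered a to c) is the H1 line carrying the doxycycline (Dox)-inducible shRNA with Dox added, here called the induced libraries. iKD2 Dox- (n = 2, lettered b and c) is the same line without Dox, here called the uninduced libraries. The iSCR Dox+ libraries (n = 2, lettered a and b), from H1 cells with a non-targeting scramble shRNA that also received Dox, are given beside them. They were also part of the same fit, so the spread behind each p-value comes from all 7 libraries. H1 is an established human embryonic stem cell line. Both lines had been transduced with a lentiviral vector and selected with puromycin, so that the vector is shared by every library, and neither was described as a single clone. All cells were differentiated to β-like cells and sorted by flow cytometry after staining with DA-ZP1, a dye for zinc, before total RNA was extracted. The uninduced group lacks a library with the letter a.

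METTL14 is the partner of METTL3 in the complex that writes N6-methyladenosine (m6A) on RNA. METTL3 carries the catalytic site, METTL14 helps to bind the RNA, and adaptors such as WTAP and VIRMA direct the complex to its sites. The mark is read by YTH-domain and other proteins, removed by FTO and ALKBH5, and known to influence splicing, decay and translation of the message. β cells make and store insulin with zinc in secretory granules, and stem cell-derived cultures commonly also hold other endocrine cells, enterochromaffin-like cells and epithelial cells that have not become endocrine. Dox is an antibiotic of the tetracycline class that also slows protein synthesis in mitochondria. In iKD2 the drug and the shRNA were always given together, so their effects cannot be told apart within this line.

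Total estimated counts ranged from 15919386 to 20639156 in the 5 libraries, and 20179 to 23676 genes had at least 1 count. Levels are given in CPM, counts brought to a common library total after scaling by the trimmed mean of M-values. Of 22926 genes tested, 4238 had a mean of 50 CPM or more over the 5 libraries. The common biological coefficient of variation was 1.14, and precision followed the level closely. Genes under 5 CPM had a median coefficient of variation of 1.23 within groups and a median standard error (SE) of 3.25 for the log2 fold change. These values were 0.231 and 0.37 at 50 to 200 CPM, and 0.106 and 0.16 at 1000 CPM or more, where 56 genes lay. In bulk RNA, fewer cells of a type and less RNA per cell cannot be told apart. Libraries differed within groups. Over the 4238 abundant genes, induced library a had a Pearson r of 0.82 with b and 0.83 with c, while b and c had 0.87, and b had 0.88 with uninduced b. The scramble libraries had 0.79 with each other. P-values measure only the spread between these samples. The study calls its samples independent, but whether each library came from its own differentiation was not shown by these data.

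The targeted transcript was examined first. METTL14 (chromosome 4) stood at 18.7 CPM in induced library a, 16.3 CPM in b and 49.1 CPM in c, against 39.4 and 22.6 CPM in the uninduced libraries. The library labelled iKD2 Dox+ c was the highest of the 5, so the groups overlapped. The log2 fold change was -0.14 (SE 0.63), with an adjusted p of 1 by edgeR's quasi-likelihood test, and a lower METTL14 mRNA was not detectable with these libraries. The value turned to 0.08 when induced library a was left out, to 0.13 when induced library b was, and to 0.30 when uninduced library b was, and it was -0.83 when induced library c was. Directions given below are those of the libraries labelled Dox+, with the library labelled c included.

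The comparison then asked which genes differed after induction. A membrane mucin, an immune ligand, a complement regulator, a desmosomal cadherin, a matrix protein, an annexin, an actin-severing protein, a membrane scaffold and a glucose transporter rose. By edgeR's quasi-likelihood test, 9 genes rose at an adjusted p under 0.05 (0.0393% of the 22926 tested) and 0 fell (0.0%). All 9 were at 50 CPM or more, where they made up 0.212% of genes, with 0.0% lower. They were MUC16, SPARC, ANXA1, AHNAK, GSN, SLC2A3, CD55, VTCN1 and DSC3. Each had all 3 Dox+ libraries above both Dox- libraries, and also above both iSCR Dox+ libraries, although against iSCR Dox+ only MUC16 of the 9 passed the threshold (edgeR adjusted p = 0.0048). At an unadjusted p under 0.05, 2.04% of all genes were higher and 1.67% lower, and among genes at 50 CPM or more these shares were 5.31% and 2.34%. The number past the adjusted threshold moved with single libraries. Leaving out induced a, b or c in turn gave 3, 12 or 2 genes, and leaving out uninduced b or c gave 29 or 15. Leaving out scramble library a or b, which also changes the genes tested and the scale, gave 101 or 115, and leaving out both gave 13. It was 218 with DESeq2.

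**Figure D1:**
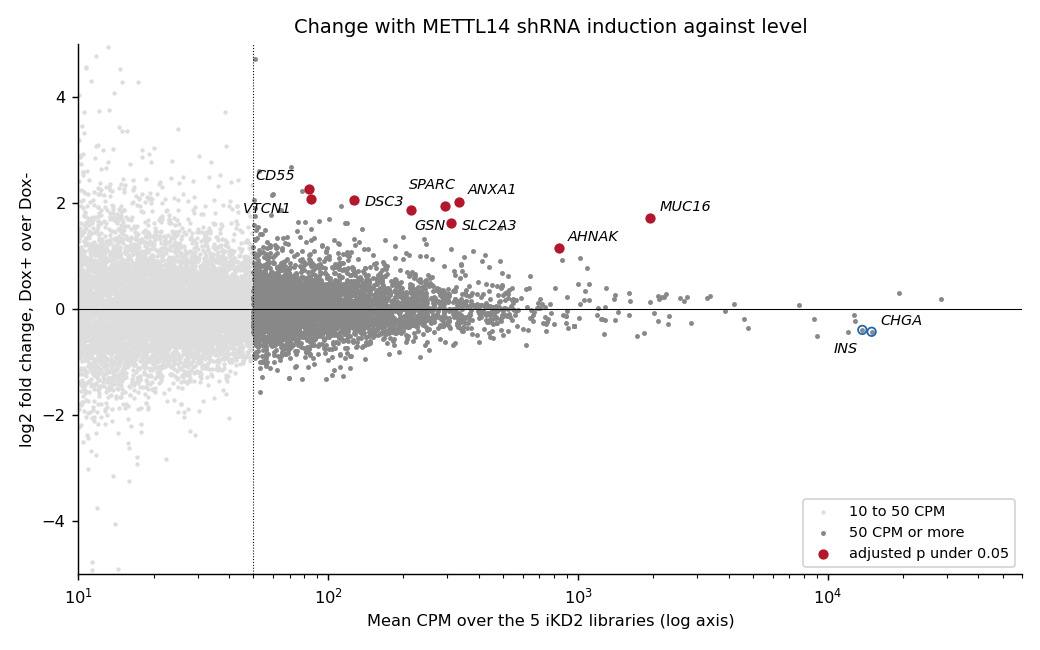
The log2 fold change of iKD2 Dox+ over iKD2 Dox- is plotted against the mean CPM of the 5 iKD2 libraries (log axis) for the 11741 genes at 10 CPM or more, of which 6 lie beyond the vertical axis. Light and dark grey points are genes below and above 50 CPM, red points are the 9 genes past an adjusted p of 0.05, and open circles mark INS and CHGA. The cloud narrows as the level increases, and all 9 red points lie above 0.

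Promoter sequence is shown for 3 of the genes that rose together, a matrix gene, an annexin and a surface ligand, each with 1 RefSeq entry on GRCh38.p14. Each runs from 250 bases before to 50 after the start, 5′ to 3′ on the strand of the gene. Capitals mark matches to motifs searched on both strands, namely AP-1 (TGANTCA), TEAD (GGAATG), the TATA box (TATAAA), the GC box (GGGCGG), the CCAAT box (CCAAT) and the E-box (CACGTG).
SPARC, chr5:151686866-151687165, minus strand: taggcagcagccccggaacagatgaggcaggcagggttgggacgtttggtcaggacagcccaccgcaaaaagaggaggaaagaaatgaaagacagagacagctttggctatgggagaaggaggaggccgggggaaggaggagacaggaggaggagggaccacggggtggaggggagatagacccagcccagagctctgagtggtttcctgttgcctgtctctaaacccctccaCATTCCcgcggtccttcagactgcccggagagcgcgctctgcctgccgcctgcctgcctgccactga
ANXA1, chr9:73151615-73151914, plus strand: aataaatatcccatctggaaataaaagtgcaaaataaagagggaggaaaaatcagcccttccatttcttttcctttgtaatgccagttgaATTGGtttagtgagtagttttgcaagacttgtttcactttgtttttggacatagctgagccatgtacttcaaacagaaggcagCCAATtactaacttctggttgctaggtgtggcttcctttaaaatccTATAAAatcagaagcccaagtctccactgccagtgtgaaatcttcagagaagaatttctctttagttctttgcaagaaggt
VTCN1, chr1:117210878-117211177, minus strand: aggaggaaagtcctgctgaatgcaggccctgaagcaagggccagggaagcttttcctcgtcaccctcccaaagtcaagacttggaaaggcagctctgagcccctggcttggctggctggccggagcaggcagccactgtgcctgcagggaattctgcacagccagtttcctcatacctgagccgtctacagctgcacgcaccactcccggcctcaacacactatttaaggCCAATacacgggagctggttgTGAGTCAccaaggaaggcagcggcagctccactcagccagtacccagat
The SPARC window held 1 TEAD match, the ANXA1 window 1 TATA box and 2 CCAAT boxes, and the VTCN1 window 1 AP-1 match and 1 CCAAT box. AHNAK, CD55 and DSC3 also had 1 entry each and are not printed. The AHNAK window held 1 TEAD match and 4 GC boxes, that of CD55 1 GC box and that of DSC3 1 CCAAT box. No AP-1 match or TATA box was found in them. None of these is rare, as 4928 of the 35116 promoters in the table held the TEAD letters, 11.5% the TATA box, 34.6% the CCAAT box and 7.71% the AP-1 letters. The GC box was held by 45.0% and the E-box by 7.26%. A match is a description of the letters and does not show binding.

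MUC16, a large membrane mucin of wet epithelia and the source of the CA125 antigen, had the smallest adjusted p. Its level was 2596, 2458 and 3030 CPM in the induced libraries a to c, and 712 and 926 CPM in the uninduced libraries b and c, the order kept below. The gap between the groups was wider than the spread within either. MUC16 rose by 1.72 on the log2 scale (SE 0.17, adjusted p = 4.61e-05 by edgeR).

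VTCN1, an immune checkpoint ligand of the B7 family, was at 145, 111 and 114 CPM in the Dox+ libraries and 32.2 and 26.1 CPM in the Dox- libraries. Its log2 fold change was 2.08 (SE 0.38, edgeR adjusted p = 0.0451). CD55, which protects cells from complement, was at 107, 139 and 123 CPM with Dox against 31.3 and 19.9 CPM without. CD55 had the largest log2 fold change of the 9 genes, 2.26 (SE 0.38, edgeR adjusted p = 0.0209). The transcripts of these 3 surface proteins were thus higher in every Dox+ library, and both iSCR libraries lay above both Dox- libraries for each of them, as they did for all 9 genes.

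DSC3, a desmosomal cadherin of stratified epithelia, was at 199, 120 and 228 CPM when induced, against 54.1 and 33.8 CPM when not. It rose by 2.05 (SE 0.37, edgeR adjusted p = 0.0451). In 5 of the 7 libraries the estimated count was not whole, which means that reads were shared with other transcripts. In iSCR Dox+, DSC3 was at 70.7 and 118.3 CPM, so induced library b, at 119.8 CPM, was barely above iSCR library b.

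SPARC encodes a secreted glycoprotein that binds collagen. It was at 435, 453 and 367 CPM after induction and at 121 and 95.4 CPM without, a log2 fold change of 1.95 (SE 0.24, edgeR adjusted p = 9.22e-04). ANXA1, a calcium-dependent binder of membrane phospholipids, was at 413, 426 and 589 CPM against 147 and 87.0 CPM, a log2 fold change of 2.03 (SE 0.27, edgeR adjusted p = 0.00184). Both groups were again separate, with the lowest Dox+ library of ANXA1 well above the highest Dox- library.

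AHNAK, a giant scaffold protein beneath the plasma membrane, was at 1178, 978 and 1065 CPM with Dox and at 491 and 474 CPM without. Its change was the smallest of the 9, 1.15 on the log2 scale (SE 0.18, edgeR adjusted p = 0.0135). GSN, which severs and caps actin filaments, was at 370, 209 and 326 CPM against 96.8 and 68.1 CPM, a log2 fold change of 1.87 (SE 0.30, edgeR adjusted p = 0.0135). The Dox+ libraries of GSN spread more widely than those of AHNAK, and library b was the lowest.

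SLC2A3, the glucose transporter GLUT3, was at 551, 391 and 338 CPM with induction and at 125 and 151 CPM without. Its log2 fold change was 1.63 (SE 0.27, edgeR adjusted p = 0.0166). The counts of SLC2A3 were not whole in 7 libraries, so near-identical sequence may have taken or lent part of them.

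Of 18 alternative settings, all 18 kept MUC16 and SPARC past the threshold, 15 of 17 did so for ANXA1 and 15 of 18 for AHNAK. For the others the count was 12 of 17 for GSN and SLC2A3, 12 of 18 for CD55, 11 of 18 for VTCN1 and 12 of 17 for DSC3. The direction of each of the 9 genes was the same in every setting that gave a value.

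**Figure D2:**
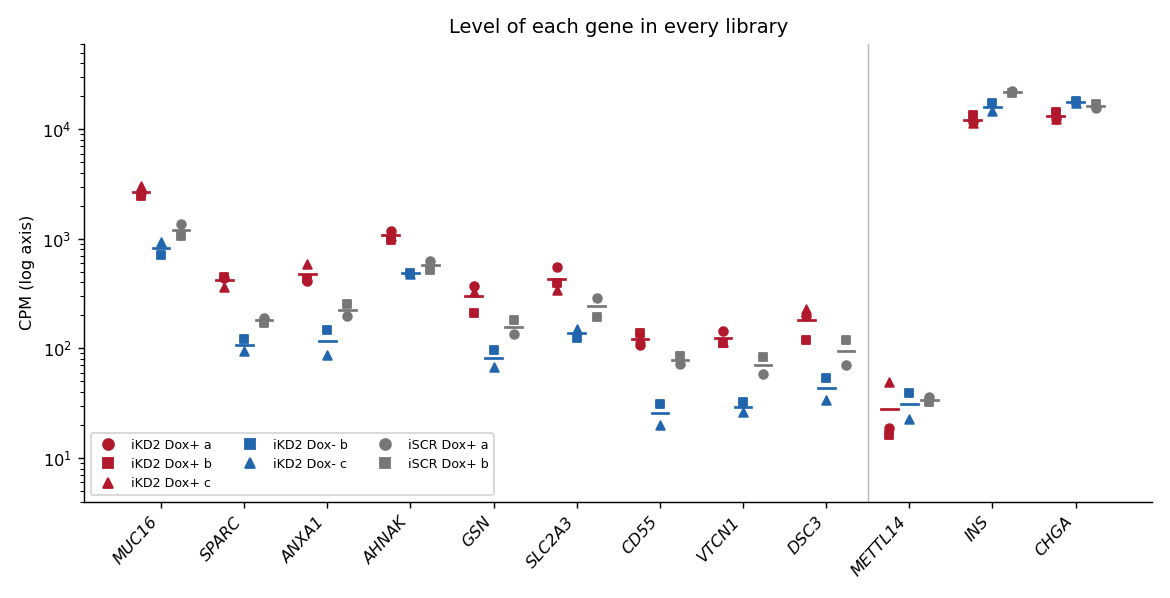
CPM in each of the 7 libraries (log axis) for the 9 genes past the threshold, METTL14, INS and CHGA. Red, blue and grey are iKD2 Dox+, iKD2 Dox- and iSCR Dox+, the marker gives the letter of the library, and the short lines are group means. For the 9 genes on the left all red points lie above all others, whereas METTL14 overlaps.

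Abundant genes were then described with the groups held apart. Among genes at 50 CPM or more, 14.1% had all Dox+ libraries above both Dox- libraries and 12.2% had all below, so that separation alone was common in both directions. Over all genes these shares were 8.72% and 11.6%. Changes of at least 2-fold were less even, with 109 abundant genes higher and 23 lower, of which 97 and 20 had separate groups. This count of 132 genes became 228 when uninduced library b was left out. The median log2 fold change was 0.02 at 50 CPM or more, close to 0.

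When only the abundant genes were fitted and p-values were adjusted over them alone, edgeR called 24 genes. All 24 were higher in Dox+, all 24 had separate groups, and 20 of them were above both iSCR libraries as well. They included the 9 genes above. Some of the other 15 lie outside the naming rule used here and were chosen after their values were seen. KRT8, KRT18, KRT19, CLDN4 and ELF3 belong to the list of ductal and simple epithelial genes. KRT8 and KRT18, the paired keratins of simple epithelia, had log2 fold changes of 0.95 and 1.12 in that fit (SE 0.19 and 0.25, adjusted p = 0.0217 and 0.0346 by edgeR). Their counts were not whole in 7 and 6 libraries. KRT19, a keratin of ducts, was at 533, 626 and 640 CPM with Dox and 358 and 280 CPM without. CLDN4, a tight junction claudin, was at 338, 240 and 211 CPM against 126 and 77.9 CPM. ELF3, an epithelial ETS transcription factor, was at 258, 224 and 182 CPM against 98.7 and 81.2 CPM.

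EZR, which ties actin to the apical membrane, had a log2 fold change of 1.01 in the fit of abundant genes (SE 0.19, edgeR adjusted p = 0.0128), and TPM1, a tropomyosin, one of 0.90 (SE 0.20, edgeR adjusted p = 0.0354). COL3A1, a fibrillar collagen, was at 880, 480 and 614 CPM after induction and at 295 and 159 CPM without. Its lowest induced library lay between the iSCR Dox+ libraries, at 504 and 471 CPM. KLF4, an epithelial and pluripotency-associated zinc finger factor, was at 116, 114 and 185 CPM against 48.7 and 37.1 CPM. GABRP, a GABA-A receptor subunit of epithelia, was at 116, 96.0 and 108 CPM against 24.4 and 9.04 CPM. GABRP had the largest log2 fold change of the 24, 2.67 (SE 0.51, edgeR adjusted p = 0.0128), with counts that were not whole in 5 libraries. ANXA2, FOSB, NIBAN2, ZFP36L1 and the unplaced gene ENSG00000274429 complete the set.

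Other abundant genes with separate groups and an unadjusted p under 0.05 are given as values, since none passed the adjusted threshold over all genes. CREG1, a lysosomal glycoprotein, was at 99.2, 81.1 and 56.6 CPM against 13.9 and 12.2 CPM. CD9, a tetraspanin, was at 101, 77.3 and 83.2 CPM against 17.1 and 21.6 CPM. GATA3, a zinc finger transcription factor of trophoblast, amnion and other epithelia, was at 81.7, 63.9 and 72.0 CPM against 27.7 and 7.13 CPM. All 3 genes were above both iSCR Dox+ libraries too. The same did not hold for the remaining genes of this group. COL12A1, a collagen of type XII, was at 263, 98.5 and 116 CPM against 57.0 and 25.6 CPM, with 97.0 and 127 CPM in iSCR Dox+. TTC9 was at 90.8, 54.4 and 72.0 CPM against 13.8 and 24.8 CPM, with 5.42 and 57.8 CPM in iSCR Dox+. RGPD6, one of a family of near-identical copies whose counts were not whole in 7 libraries, was at 44.8, 147 and 67.4 CPM against 18.95 and 20.21 CPM, with 48.4 and 188 CPM in iSCR Dox+.

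On the low side the differences were smaller, between -1.32 and -1.09 for the 12 lowest abundant genes. LONP1, the chief protease of the mitochondrial matrix, was at 70.3, 64.7 and 77.5 CPM with Dox and at 137 and 179 CPM without. SNAP25, a SNARE protein of regulated exocytosis, was at 47.3, 28.8 and 33.8 CPM against 74.0 and 83.7 CPM. PRPS2, which makes phosphoribosyl pyrophosphate for nucleotide synthesis, was at 57.1, 38.4 and 51.4 CPM against 138 and 107 CPM. The other genes of this group were VSTM2A, HYPK, RASA4, C1QL1, MORC2, RAB3C, CALCOCO1, CFAP36 and PSD3. PRPS2 and CALCOCO1 were below both iSCR libraries as well, but the remaining 10 genes overlapped with iSCR, where LONP1 was at 68.6 and 161 CPM.

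Gene lists were used to order these changes. Lists are described by the number of members with separate groups and by their medians. These are to be read against 14.1% and 12.2% of abundant genes and a median of 0.02. Both shares grew with level, from 13% and 11.6% at 50 to 200 CPM to 18.8% and 15% at 200 to 1000 CPM. At 1000 CPM or more they were 37.5% and 17.9%, so the background is higher for lists of very abundant genes. The lists were written with earlier results of these data known, so their counts and medians are description and test nothing. In the list of stratified epithelial and amnion-like genes, 12 members were at 50 CPM or more, of which 6 had all Dox+ libraries higher and 0 lower, with a median log2 fold change of 1.28. That median was 0.72 without uninduced library c and 1.80 without uninduced library b. MUC16, VTCN1 and DSC3 passed the adjusted threshold. The summed level of the list was 5066, 4438 and 5152 CPM with induction and 2032 and 2012 CPM without. MUC16 was the largest single part of that sum. Among ductal and simple epithelial genes, 9 of 13 abundant members were higher in every Dox+ library and 0 lower, with a median of 0.91 (0.74 to 0.99 with 1 iKD2 library left out). Over all 27 tested members the ductal median was 0.59, and 0.28 without induced library a. SOX9, a transcription factor of ducts and progenitors, was at 179, 202 and 151 CPM against 89.8 and 72.1 CPM. Not every epithelial gene differed in this way, as KRT7 was at 75.1, 101 and 89.6 CPM against 88.0 and 54.9 CPM.

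Members of the list of annexins and S100 proteins, calcium-binding proteins of membrane and cytoskeleton, were higher in every Dox+ library in 5 of 9 cases and lower in 1. Matrix genes gave a similar count. Of 13 abundant mesenchymal and stromal markers, 7 were higher in all Dox+ libraries and 1 lower, with a median of 1.02 (0.77 to 1.15 with 1 iKD2 library left out). FN1, fibronectin, was at 1517, 1191 and 1191 CPM against 755 and 759 CPM, and COL1A2, a chain of type I collagen, was at 65.6, 93.2 and 152 CPM against 26.3 and 40.0 CPM. VIM, the intermediate filament of mesenchyme, was at 637, 359 and 400 CPM against 566 and 667 CPM, and overlapped between the groups. The summed level of the mesenchymal list overlapped between the groups, at 7720, 5380 and 5500 CPM with Dox and 4571 and 5491 CPM without. Laminins, integrins and basement membrane genes had 4 of 13 abundant members higher and 1 lower, TGF-β and BMP response genes 4 of 9 and 0, and YAP and TEAD target genes 3 of 11 and 1.

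Immediate early genes, transcription factors and phosphatases that respond quickly to signals at the cell surface, were higher in every Dox+ library in 14 of 20 abundant members and lower in 0, with a median of 0.60 (0.47 to 0.60 with 1 iKD2 library left out). FOSB was at 1086, 847 and 1246 CPM against 461 and 659 CPM. ATF3 was at 401, 286 and 449 CPM against 221 and 240 CPM. The most abundant members moved less. JUN was at 2400, 2678 and 3228 CPM against 2301 and 2691 CPM, and EGR1 was at 2286, 2299 and 2671 CPM against 1892 and 2069 CPM. Against iSCR Dox+ the median of the list was 0.05, while iKD2 Dox- was lower than iSCR Dox+ by a median of -0.42, so that by these medians the libraries without Dox held the lowest levels.

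**Figure D3:**
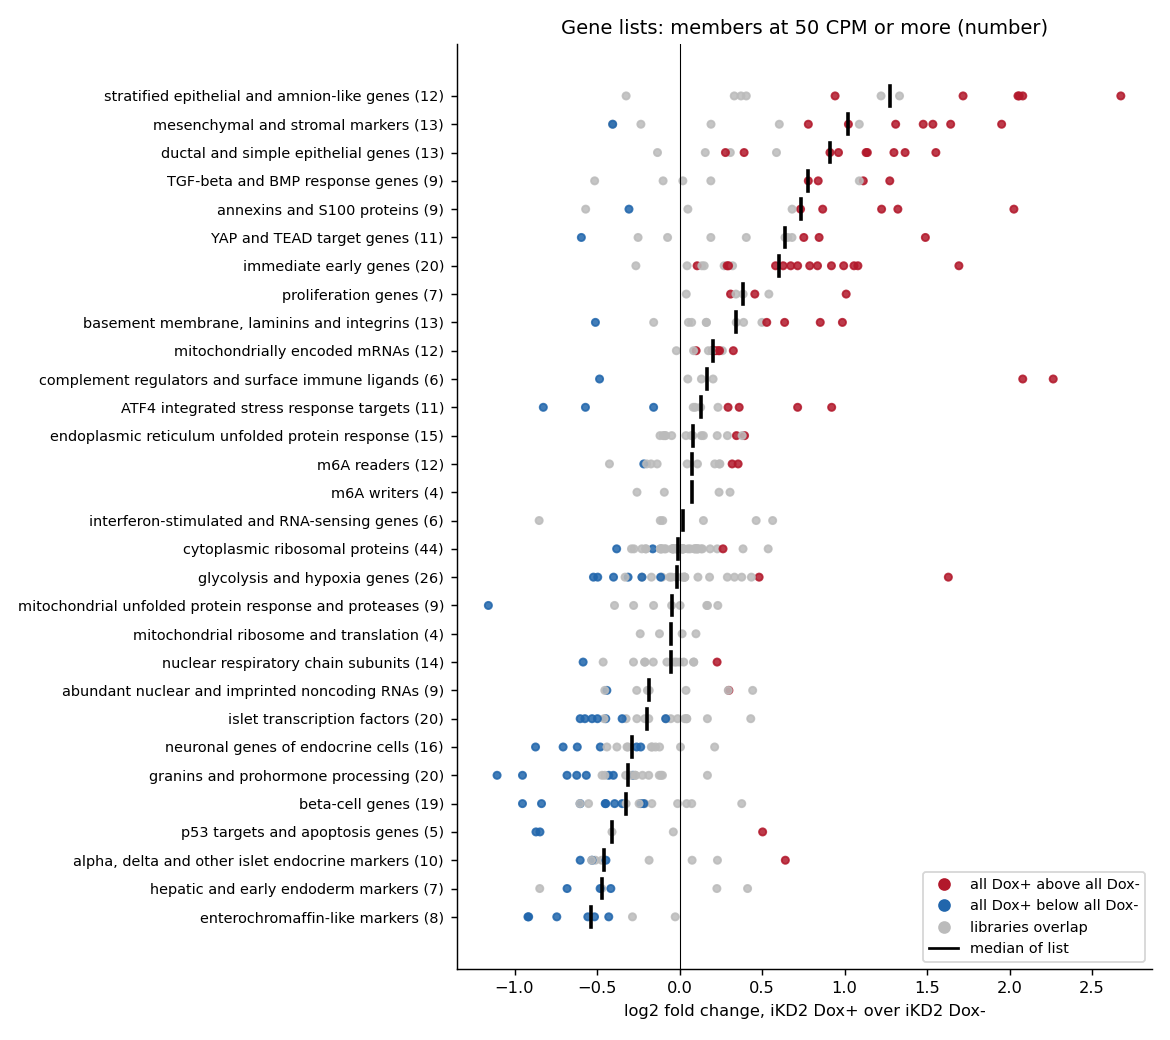
Log2 fold changes of iKD2 Dox+ over iKD2 Dox- for the members at 50 CPM or more of each gene list with at least 4 such members (their number in brackets). Red and blue points have all Dox+ libraries above or below both Dox- libraries, grey points overlap, and black bars are medians. Medians run from -0.54 for enterochromaffin-like markers to 1.28 for stratified epithelial and amnion-like genes.

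Endocrine lists had medians on the other side of 0, from -0.54 to -0.20 over their abundant members, and below 0 in all 18 alternative settings. Single members ran from -1.11 (SNAP25) to 0.64 (MEIS2, a homeobox factor). None of the endocrine genes passed the adjusted threshold, although CHGA passed it in 5 and INS in 2 of 17 alternative settings. INS, the insulin gene, was at 11625, 13581 and 11365 CPM after induction, and 17393 and 14630 CPM were found without it. All Dox+ libraries were lower, with a log2 fold change of -0.39 (SE 0.10, edgeR adjusted p = 0.451). Insulin was by far the leading β-cell transcript, and the label of β-like cells was matched by PDX1, NKX6-1 and SLC30A8, each above 50 CPM in all 5 libraries. IAPP and MAFA were low, at 5.66 to 29.4 CPM and 0 to 38.2 CPM. GCG, the glucagon gene, was also high, at 5039, 9471 and 8559 CPM against 12850 and 9059 CPM.

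Of 19 abundant β-cell genes, 9 were lower in every Dox+ library and 0 higher, with a median of -0.32, which was -0.18 without uninduced library b. The median was -0.25 against iSCR Dox+, and -0.03 for iKD2 Dox- over iSCR Dox+. PDX1, a transcription factor of pancreas and β cell, was at 71.1, 90.3 and 123 CPM against 133 and 154 CPM. PCSK1, the convertase that starts the cleavage of proinsulin, was at 50.4, 94.8 and 72.6 CPM against 166 and 115 CPM. DLK1, an imprinted Notch ligand of endocrine cells, was at 1335, 1733 and 1746 CPM against 2344 and 2042 CPM. In iSCR Dox+, PDX1 was at 153 and 190 CPM and DLK1 at 1594 and 2072 CPM. PCSK1 was at 49.4 and 40.3 CPM there, below every iKD2 library. NKX6-1 and the KATP channel subunit ABCC8 overlapped between the groups, at 165 to 232 CPM against 158 to 232 CPM and at 360 to 547 CPM against 393 to 442 CPM. SLC30A8, which loads zinc into the insulin granule, was at 304, 373 and 477 CPM against 700 and 427 CPM. Its level in iSCR Dox+ was 337.9 and 311.5 CPM. Cells were sorted on a zinc dye, and the part of the gate in this level was not tested.

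CHGA, chromogranin A of endocrine granules, had the smallest p of the endocrine genes. It was at 12446, 14419 and 12516 CPM with Dox and at 17941 and 17404 CPM without, a log2 fold change of -0.43 (SE 0.10, edgeR adjusted p = 0.191). Granins and prohormone processing genes had 8 of 20 abundant members lower in every Dox+ library and 0 higher. Among enterochromaffin-like markers the count was 6 of 8 lower and 0 higher, with a median of -0.54, the lowest of the lists. The median of these markers was 0.09 for iKD2 Dox+ over iSCR Dox+, and 0.48 for iKD2 Dox- over iSCR Dox+. By these medians the libraries without Dox held the highest levels. ADRA2A, the α2A adrenergic receptor, was at 125, 70.6 and 64.4 CPM against 152 and 174 CPM, whereas TPH1, which makes serotonin, overlapped at 798, 602 and 647 CPM against 791 and 872 CPM. Islet transcription factors had 7 of 20 lower and 0 higher, among them INSM1 at 325, 315 and 376 CPM against 514 and 442 CPM. Among α, δ and other endocrine markers, 3 of 10 were lower and 1 higher, and SST, somatostatin, overlapped at 3904, 2705 and 2073 CPM against 2281 and 2655 CPM. Neuronal genes shared with endocrine cells had 6 of 16 lower and 0 higher.

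Summed over the whole list, β-cell genes were at 16840, 19390 and 17230 CPM with Dox and at 24690 and 20980 CPM without, and granin and processing genes at 17630, 20520 and 17620 CPM against 25120 and 23840 CPM. INS was the largest part of the first sum. CHGA was the largest part of the second and of the enterochromaffin-like sum, so these sums largely follow single genes. Ductal and simple epithelial genes summed to 5370, 5168 and 5001 CPM against 3449 and 2943 CPM. The sum of α, δ and other endocrine markers overlapped, at 11290, 15100 and 13060 CPM against 18750 and 14660 CPM. In library a of iSCR Dox+ the ductal and stratified sums, 4342 and 3269 CPM, were above those of both Dox- libraries, and so was the β-cell sum, at 28380 CPM. In library b of iSCR Dox+ the stratified and β-cell sums, 2643 and 27970 CPM, were above them too. Its ductal sum, 3293 CPM, lay between the 2 Dox- libraries. The purity of each sort was not measured in these files, and its part in the result was not tested. Acinar markers were near 0, summing to 9.57 to 53.7 CPM in the 5 libraries with 4 of their members at 0 throughout, and pluripotency markers summed to 162 to 371 CPM with 0 members at 50 CPM or more. Proliferation genes had 3 of 7 abundant members higher and 0 lower, with MKI67 at 384, 255 and 287 CPM against 141 and 165 CPM. Hepatic and early endoderm markers had 3 of 7 lower and 0 higher.

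**Figure D4:**
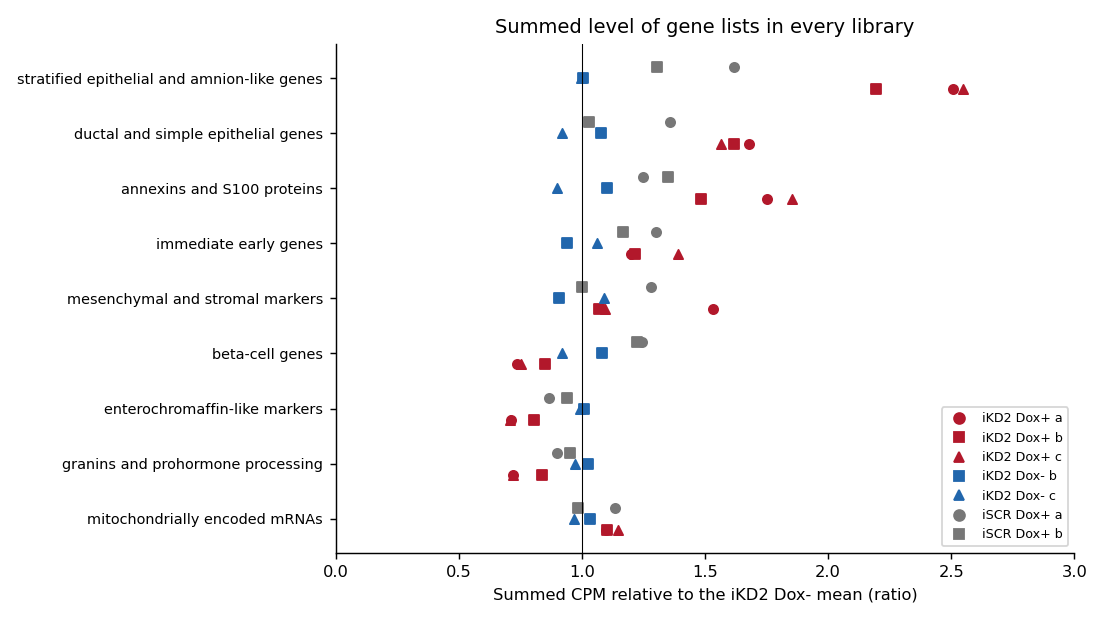
Summed CPM of the members of 9 gene lists in each library, divided by the mean of the 2 iKD2 Dox- libraries (ratio, vertical line at 1). Red, blue and grey are iKD2 Dox+, iKD2 Dox- and iSCR Dox+, and the marker gives the letter. Epithelial lists lie right of the line and endocrine lists left of it in all 3 Dox+ libraries, while mesenchymal markers overlap. INS is the largest part of the β-cell sum, and CHGA of the enterochromaffin-like and granin sums, so the endocrine rows are not independent.

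The genes of the m6A machinery were examined next. Of 9 writers tested, 4 were at 50 CPM or more, and 0 of these had separate groups in either direction. METTL3 was at 25.1, 11.5 and 25.3 CPM with Dox and at 28.2 and 6.37 CPM without. WTAP was at 55.2, 93.5 and 62.3 CPM against 120 and 48.6 CPM, and VIRMA at 67.3, 40.9 and 101 CPM against 45.6 and 67.1 CPM. The erasers overlapped as well, with FTO at 130, 74.5 and 83.4 CPM against 90.2 and 67.9 CPM and ALKBH5 at 235, 162 and 147 CPM against 204 and 246 CPM. Of 12 abundant readers, 2 were higher in all Dox+ libraries and 1 lower, close to the shares of all abundant genes.

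Dox is a confounder of this comparison, so the lists of mitochondrial genes were read next. Mitochondrially encoded mRNAs summed to 27590, 27690 and 28820 CPM with induction and to 25960 and 24320 CPM without. In iSCR Dox+, which also received the drug, the sums were 28570 CPM in library a and 24720 CPM in library b. The sum of iSCR library b thus lay between those of the Dox- libraries. The median of the abundant members was 0.03 for iKD2 Dox+ over iSCR Dox+ and -0.11 for iKD2 Dox- over iSCR Dox+. Of 12 abundant members, 7 were higher in every Dox+ library and 0 lower, but the median difference was only 0.20, or 0.11 without uninduced library c, and 0 members had an unadjusted p under 0.05. MT-ND2, a subunit of complex I, was at 2195, 2188 and 2284 CPM against 1849 and 2024 CPM. Among all genes at 1000 CPM or more, 37.5% were higher in every Dox+ library. Nuclear-encoded respiratory chain subunits had 1 of 14 higher and 1 lower, and genes of the mitochondrial ribosome 0 of 4 in either direction. In the list of mitochondrial unfolded protein response genes and proteases, LONP1 was the 1 of 9 abundant members that was lower, and 0 were higher. Targets of ATF4, which is induced by mitochondrial and other stresses, had 4 of 11 higher and 3 lower.

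Other stress responses were mixed. Genes of the unfolded protein response of the endoplasmic reticulum had 2 of 15 higher and 0 lower, namely the chaperones HSP90B1, at 1484, 1294 and 1529 CPM against 1132 and 1054 CPM, and CALR, at 1168, 1145 and 1183 CPM against 1026 and 810 CPM. Glycolysis and hypoxia genes had 2 of 26 higher, SLC2A3 included, and 6 lower. Interferon-stimulated and RNA-sensing genes had 0 of 6 in either direction, with a median of 0.02. Over all 27 tested members of that list, most of them under 50 CPM, 5 were higher and 2 lower, against 8.72% and 11.6% of all genes, and the median was 0.60, from 0.01 to 0.92 over the alternative settings. Of 5 abundant p53 target and apoptosis genes, 1 was higher and 2 were lower. The one that was higher was MCL1, an inhibitor of apoptosis, at 387, 484 and 476 CPM against 292 and 342 CPM. Cytoplasmic ribosomal proteins had 1 of 44 higher and 2 lower, complement regulators and surface immune ligands 2 of 6 and 1, and abundant nuclear and imprinted noncoding RNAs 1 of 9 and 1.

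The iSCR Dox+ libraries received the drug but differ from iKD2 in line and shRNA. The 7 libraries of the series include no iSCR library without Dox. In iKD2 Dox- against iSCR Dox+, line and drug again cannot be told apart. Values of the 3 contrasts of the same fit, which share libraries, are therefore set side by side. For MUC16 the log2 fold change was 1.72 against iKD2 Dox-, 1.16 (SE 0.17) against iSCR Dox+, and -0.56 (SE 0.18) for iKD2 Dox- over iSCR Dox+. For SPARC these were 1.95, 1.21 (SE 0.24) and -0.75 (SE 0.25). AHNAK differed least of the 9 between the control groups, with 1.15, 0.90 (SE 0.18) and -0.26 (SE 0.19).

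Of the 9 genes, CD55 differed most between the 2 control groups. Its values were 2.26 against iKD2 Dox-, 0.65 (SE 0.35) against iSCR Dox+ and -1.61 (SE 0.39) between the control groups. Over the 9 genes, the difference of the uninduced libraries from iSCR Dox+ ran from -1.61 to -0.26, and that of the induced libraries from iSCR Dox+ from 0.65 to 1.21. Against iSCR Dox+, 0.0218% of all genes passed as higher and 0.00436% as lower. MUC16 was among them, whereas the adjusted p of the other 8 genes ran from 0.116 (SPARC) to 0.699 (CD55) by edgeR. INS passed in that contrast, with an edgeR adjusted p of 4.71e-04. For INS the contrasts were -0.39 (SE 0.10), -0.85 (SE 0.10) and -0.45 (SE 0.12), so that insulin was highest in iSCR Dox+, at 22298 and 21507 CPM. For CHGA they were -0.43 (SE 0.10), -0.31 (SE 0.10) and 0.11 (SE 0.11). The median over the 12 abundant stratified epithelial genes was 1.28 within iKD2, 0.70 against iSCR Dox+ and -0.58 between the control groups. The median over the 13 ductal genes was 0.91, 0.40 and -0.33.

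**Figure D5:**
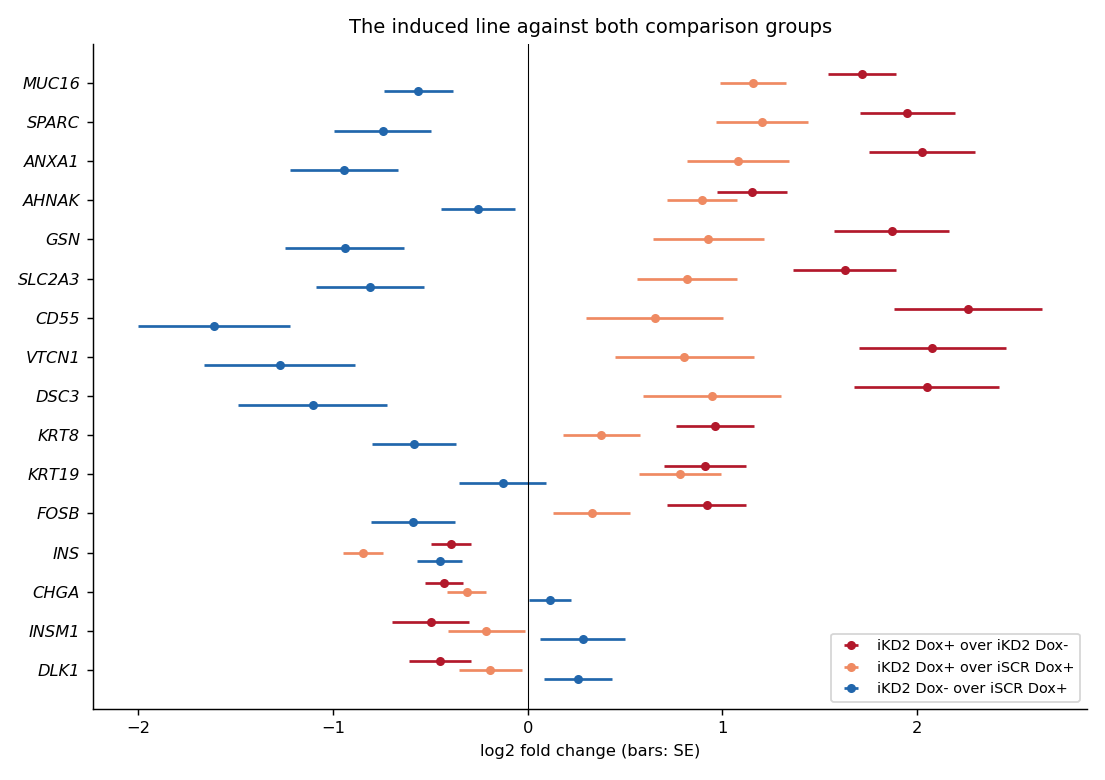
Log2 fold changes with SE bars for the 9 genes past the threshold, 3 further genes that were higher and 4 endocrine genes, in 3 contrasts that share libraries. Red is iKD2 Dox+ over iKD2 Dox-, orange iKD2 Dox+ over iSCR Dox+ and blue iKD2 Dox- over iSCR Dox+. For the 9 genes, red and orange points lie above 0 and blue points below it.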

How the data were processed

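RNA-seq had been made from 7 libraries of sorted H1-derived β-like cells, and groups were taken from the sample labels. The authors trimmed adapters with fastp and quantified reads with Kallisto, and per the study's methods tximport gave estimated counts per gene, deposited without scaling for depth or length. Versions, annotation release and strand setting are not given in the sources used here. Kallisto divides reads between similar transcripts, so counts of genes with near-identical or overlapping copies are uncertain. Other named genes with counts that were not whole include CHGA, ANXA2, HYPK and RASA4 (7 libraries each) and METTL14 and INS (4 each).

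Counts were rounded, filtered by filterByExpr (22926 of 66025 gene IDs kept), brought to a common scale by TMM, and tested by the robust quasi-likelihood method of edgeR 4.0.16 in R 4.3.3, with 3 groups in one fit, no covariate, and Benjamini-Hochberg adjustment over all genes tested. Calls were made at 0.05. The SE was taken from the log2 fold change and the F statistic. Separate groups means that every induced library lay above, or below, both uninduced ones. Chromosomes are those of GENCODE 29 on GRCh38, and promoters are from RefSeq. Alternatives were other scaling, filters, tools (DESeq2 1.42.0, limma 3.58.1 voom), libraries and a replicate block.

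Genes named are METTL14, those past the threshold, the 12 highest and 12 lowest abundant genes with separate groups and an unadjusted p under 0.05, and members of 33 gene lists. Genes and lists were chosen with earlier results of these data known, and list members beyond the 2 most abundant were chosen after their values were seen. On simulated data the fit recovered the folds put in, most 4-fold and few 2-fold changes at 50 CPM or more. Few false calls were made there, but among genes under 50 CPM they were more frequent than an adjusted p of 0.05 allows. All genes called here are above that level. The simulated spread followed only the trend with level, without spread particular to a gene or a deviating library. These rates therefore need not hold for the real libraries. Counting intervals are not given, since the spread between libraries is far larger.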

Additional observations from a re-analysis of the deposited data

How the results depend on the processing

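The directions of the 9 genes held, but the number called depended strongly on the setting. It was 51 with no filter beyond 1 count (33 of them at 50 CPM or more), 2 with a mean of at least 5 CPM (2 at 50 CPM or more), 24 with at least 50 CPM (24), 218 with DESeq2 (85) and 24 among genes with whole counts (21). Leaving out 1 library gave 2 to 115 genes, and 2 to 70 at 50 CPM or more. Genes past an unadjusted p of 0.05 and 1.5-fold, the criterion of the study, numbered 814, and 475, 263, 1840 and 364 with the filters at 5 and 50 CPM, DESeq2 and whole counts, or 540 to 1294 with a library left out. Changes of at least 2-fold at 50 CPM or more numbered 118 to 228. The cause of these shifts was not tested, except that the filters and whole counts change how many genes are tested.

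The letters b and c occur in both groups. Deviations of same-lettered libraries correlated at 0.07 for b and -0.01 for c, and the labels do not say what a letter marks. As 2 uninduced libraries deviate by equal and opposite amounts, these values cannot show whether a batch is shared. With the letter as a replicate block, 76 genes were called (53 at 50 CPM or more), and 55 (36) with letters b and c only, a setting chosen after seeing the data. Under these blocks SST turned to -0.0562 and -0.0556, IAPP to -0.3792 and -0.3793, and WTAP to 4e-04 with letters b and c only.

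Genes that reversed when 1 library was left out ran from -0.83 to 0.30 (METTL14), -3.62 to 0.49 (MAFA), -0.0031 to 0.49 (FTO), -0.77 to 0.53 (WTAP), -0.0478 to 0.42 (SST), -0.0652 to 0.61 (VIRMA), -0.12 to 0.20 (ABCC8), -0.17 to 0.86 (IAPP), -0.45 to 1.69 (METTL3) and -0.21 to 0.34 (NKX6-1). METTL14 has no value under the filter at 50 CPM or with whole counts. Of the other comparisons, which take in both single genes and list medians, 1589 were unchanged. For a gene this means the same direction and side of the threshold, and for a median, which has no threshold, only a small shift. Among comparisons of 1 gene under 1 setting, 178 passed the threshold anew, 33 no longer passed and 17 reversed direction. A further 84 comparisons were medians that moved by more. At 3 against 2 libraries, and a median SE of 0.37 at 50 to 200 CPM, 2-fold changes of most genes could not be called.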
